A study of Homo sapiens with 12 samples.

Results

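The unfolded protein response and the amino acid response were followed through a list of 32 genes in L540 cells, an established Hodgkin lymphoma line that carries the receptor CD30 on its surface. The members were all probes annotated to these genes that some group detected on each of its 2 arrays (detection p below 0.01). Of the 32 genes 31 had a probe, 38 probes in all, and 31 probes of 27 genes were kept, out of 11949 detected probes of 8113 genes on the array. The endoplasmic reticulum (ER) arm gave 19 probes of 17 genes and the ATF4 arm 12 probes of 10 genes. HERPUD1 had no probe in the annotation used and is not analysed here. The single probes of ERN1, CHAC1 and PHGDH, both probes of VLDLR and 1 of 2 probes of PSAT1 were detected on 0 arrays, and the third probe of ATF4 on 2 arrays. Of the kept probes 30 were detected on all 12 arrays. The exception was SEL1L, detected on 9, so its place among the members rests on 3 of the 6 groups.

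The 12 arrays formed 6 groups of 2 biological duplicates. Cells received CD30L-Fc, a fusion of the CD30 ligand CD153 with an Fc part, or the anti-CD30 antibody T104, PW30, T427 or T408, or were left untreated. PW30 is a mouse/human chimeric antibody. Each protein was added in PBS at 10 µg/ml after 16 h of preculture. The design text of the series gives 8 h of treatment and calls the 24 h of the sample labels wrong, while the growth protocol gives 24 h. The antibody called T408 here, as in the sample labels, stands as T428 in that text. All groups are of 1 cell line, a control with an unrelated antibody or with Fc alone is not analysed here, and the sources used here do not say whether untreated cells received PBS.

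Cells sense misfolded protein in the ER through the membrane proteins IRE1 (gene ERN1), ATF6 and PERK (gene EIF2AK3). ATF6 and the spliced form of XBP1, which IRE1 produces, raise the transcription of ER chaperones and of the machinery that folds, exports and degrades proteins. PERK and the amino acid sensor GCN2 phosphorylate the translation factor eIF2 alpha, which lowers protein synthesis but favours translation of ATF4, and ATF4 raises genes of amino acid synthesis, transport and tRNA charging.

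The DNA elements through which these factors are known to act are shown here for HSPA5, HSP90B1 and HYOU1, the ER arm genes that passed the test below. The windows come from RefSeq (GRCh38.p14), lie directly before the annotated start and are written 5′ to 3′ on the strand of the gene. Capitals mark exact matches to the patterns given below. Elements that depart from a pattern stay in small letters and are not counted. HSPA5 (chr9:125241344-125241543, minus strand) has 1 exact match to the ER stress element (ERSE) there, and HSP90B1 (chr12:103930210-103930409, plus strand) has 2. HYOU1 (chr11:119057206-119057405, minus strand) has 2 exact matches to the ERSE-II type. The first of these overlaps an unfolded protein response element (UPRE).
HSPA5: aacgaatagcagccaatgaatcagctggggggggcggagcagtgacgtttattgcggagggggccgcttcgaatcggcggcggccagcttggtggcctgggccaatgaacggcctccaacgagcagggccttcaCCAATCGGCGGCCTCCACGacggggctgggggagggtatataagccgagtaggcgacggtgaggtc
HSP90B1: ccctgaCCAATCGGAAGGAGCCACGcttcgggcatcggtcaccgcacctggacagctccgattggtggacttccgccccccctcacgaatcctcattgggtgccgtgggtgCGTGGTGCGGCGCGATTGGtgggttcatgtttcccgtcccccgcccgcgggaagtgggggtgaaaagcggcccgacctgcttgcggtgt
HYOU1: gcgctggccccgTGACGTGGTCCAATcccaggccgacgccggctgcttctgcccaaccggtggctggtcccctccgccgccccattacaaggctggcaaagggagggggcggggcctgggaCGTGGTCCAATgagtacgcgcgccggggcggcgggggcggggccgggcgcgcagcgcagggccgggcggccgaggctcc

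The patterns were searched on both strands in the 250 bases before each start, and 31 of the 32 genes had a window. These were the ERSE (CCAAT, any 9 bases, CCACG), its 3′ part alone (CCACG), the ERSE-II (ATTGG, any 1 base, CCACG), the UPRE (TGACGTGG) and the C/EBP-ATF response element or CARE (TGATGNAA). The ERSE and the ERSE-II both contain CCACG, so these counts overlap. A gene was counted if any of its windows held the pattern, and the 31 genes had 42 windows. The shares of all windows are of single windows, so gene counts and shares differ in unit. The ERSE stood in 5 of 19 ER arm genes, namely CRELD2, HSP90B1, HSPA5, PDIA6 and XBP1, and in 0 of 12 ATF4 arm genes. Among all 35116 windows of this length 0.074% held it. The ERSE-II stood in HERPUD1, HYOU1 and SDF2L1, again of the ER arm, and in 0.0513% of all windows. The UPRE was found in HYOU1, and in 0.612% of all windows. CARE stood in AARS1, ASNS and CHAC1 of the ATF4 arm and in HERPUD1, with 3.14% of all windows. CCACG alone stood in 14 ER arm and 7 ATF4 arm genes, and in 33.5% of all windows. Of these patterns ATF5 and PPP1R15A, which also passed the test below, held only CCACG. CRELD2, PDIA6 and XBP1, which hold an ERSE, and SDF2L1, which holds an ERSE-II, did not pass it. Side by side, with the fixed letters of each element in capitals, the elements of the ER arm and 2 of those of the ATF4 arm read as follows. Each is written in the direction of its pattern. For HSP90B1 proximal, CRELD2, HYOU1, SDF2L1 and AARS1 this is the strand opposite to the gene.
ERSE of HSPA5: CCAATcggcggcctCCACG
ERSE of HSP90B1, distal: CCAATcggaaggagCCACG
ERSE of HSP90B1, proximal: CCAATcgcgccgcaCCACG
ERSE of CRELD2: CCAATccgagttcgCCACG
ERSE of PDIA6: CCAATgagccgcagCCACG
ERSE of XBP1: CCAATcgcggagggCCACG
ERSE-II of HYOU1, at both places: ATTGGaCCACG
ERSE-II of HERPUD1: ATTGGgCCACG
ERSE-II of SDF2L1: ATTGGtCCACG
CARE of ASNS: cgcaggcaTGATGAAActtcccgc
CARE of AARS1: aacttggcTGATGCAActgcgaga
For CARE the capitals cover the whole 8-letter match, with 8 bases on either side. A match describes the letters in the window and does not show that a factor was bound there.

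Median raw signals ran from 129.9 to 151.7, and each array detected 10910 to 12005 probes. Duplicates correlated at r of 0.989 to 0.993 across the detected probes. That median was 144.0 or more on the CD30L-Fc and untreated arrays and 136.3 or less on the PW30, T427 and T408 arrays, and its part in the results was not tested. All 6 Hodgkin and Reed-Sternberg cell markers had a kept probe, with TNFRSF8 (CD30) detected on 11 arrays and CCL17 on 6. Of the B cell, fibroblast and epithelial markers 0 were kept, and of the T cell markers only CD2. CD68 and CSF1R of the 4 monocyte markers were kept, while CD14 was detected on 0 arrays and LYZ on 1. Values below are log2 signals after normalization, and differences between group means are log2 differences ± limma's standard error (SE), with n = 2 arrays in each group. A probe was called at a Benjamini-Hochberg adjusted p below 0.05 over all 11949 probes. Levels of different probes are not compared.

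HSPA5, HSP90B1 and HYOU1, which encode chaperones of the ER, rose 1.40-fold to 1.71-fold after CD30L-Fc and T104 on their called probes, and after PW30 HYOU1 alone of the ER arm passed the test. The second HYOU1 probe, at 1.36-fold after CD30L-Fc and 1.25-fold after T104, was not called, nor were the other 15 ER arm probes. In the ER arm 3, 3 and 1 of 19 probes were called higher after CD30L-Fc, T104 and PW30, and 0 were called lower. Among all detected probes 4.95%, 5.36% and 5.95% were called higher, and 2.28%, 2.65% and 3.83% lower. In the ATF4 arm the regulators ATF5 and PPP1R15A were the members that passed. ATF5 was called higher after each of these treatments and PPP1R15A after PW30, so 1, 1 and 2 of 12 probes were called higher and 0 lower. These counts describe single genes, and no shift of either list is read from them. After T427 and T408 limma called 0 of the 31 member probes, where 0.251% and 0.259% of all probes were called. An unadjusted p below 0.05 was reached by 0 of the 31 in each, where 7.21% and 8.01% of all probes reached it. These are bulk RNA samples, in which fewer cells expressing a gene and less of its RNA per cell cannot be told apart. The comparisons with untreated cells share the same 2 untreated arrays, so they are not independent of each other.

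**Figure D1:**
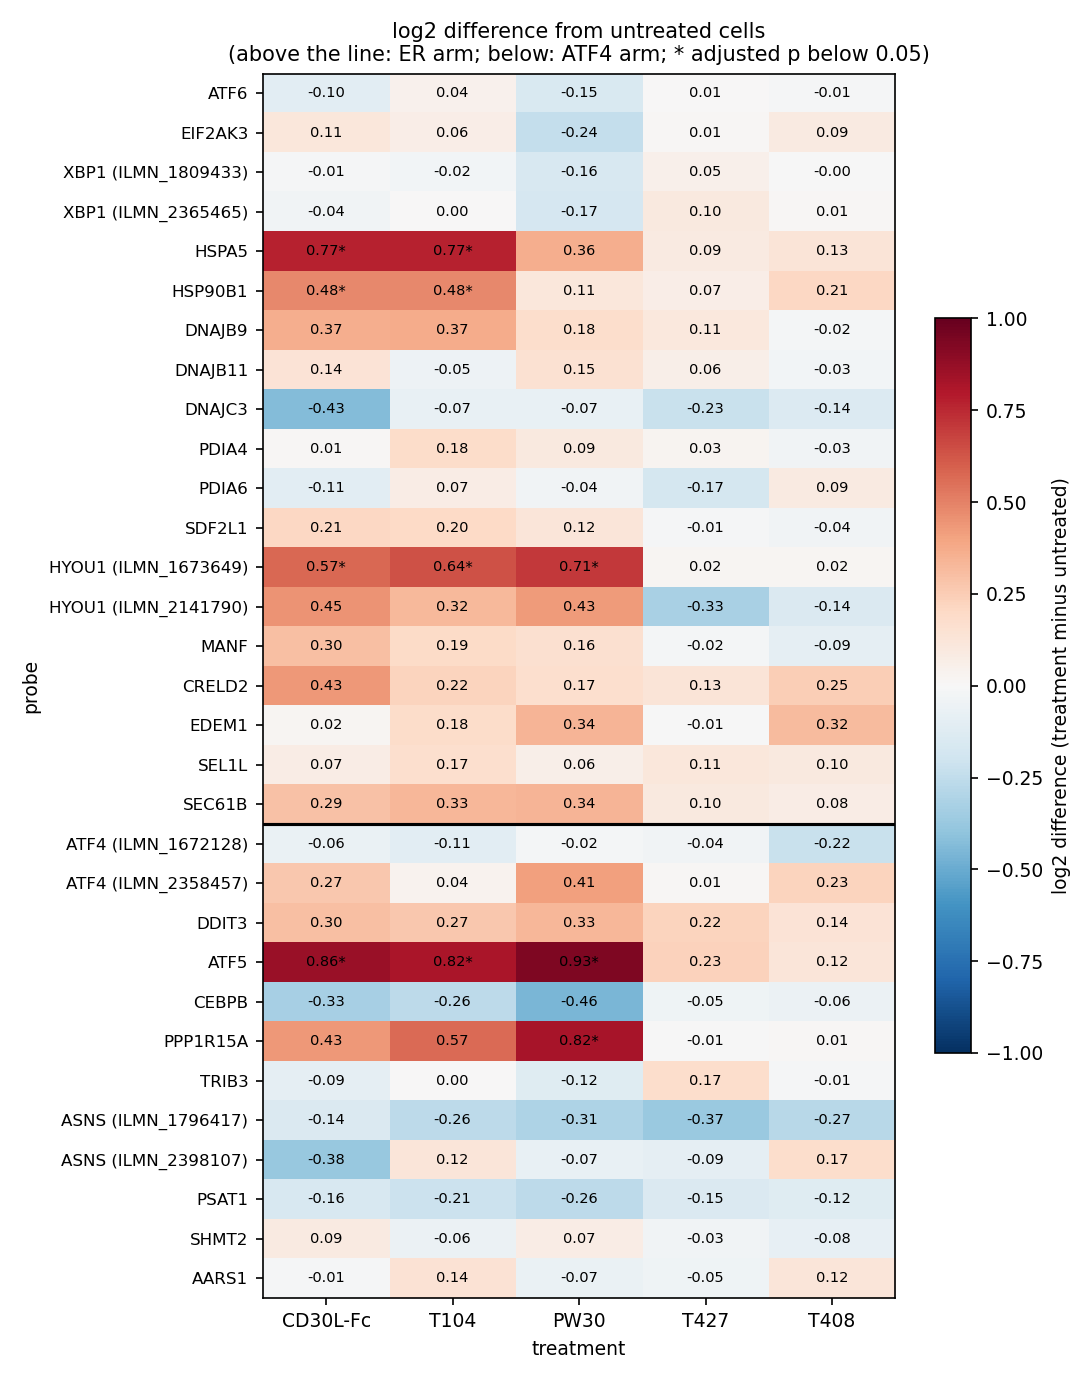
Log2 difference from untreated cells for the 31 member probes (1 line per probe) after each of the 5 treatments (columns), as colour and number, with an asterisk at an adjusted p below 0.05. The called cells are HSPA5, HSP90B1 and HYOU1 (0.48 to 0.77) of the ER arm and ATF5 and PPP1R15A (0.82 to 0.93) of the ATF4 arm, and the T427 and T408 columns hold none.

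HSPA5 encodes BiP, the main chaperone of the ER lumen and the classical readout of the unfolded protein response. Its log2 signal was 8.96 and 9.03 on the CD30L-Fc arrays, 9.01 and 8.97 on the T104 arrays, 8.69 and 8.48 on the PW30 arrays, 8.45 and 8.18 on the T427 arrays and 8.16 and 8.55 on the T408 arrays, against 8.03 and 8.42 on the untreated arrays. All CD30L-Fc and T104 arrays lay above every other array. The PW30 arrays also lay above both untreated arrays, the lower of them by little, and the T427 and T408 arrays overlapped with the untreated ones. HSPA5 rose by a log2 of 0.77 ± 0.17 after CD30L-Fc (adjusted p = 0.0178) and by 0.77 ± 0.17 after T104 (adjusted p = 0.0174). The differences after PW30 (0.36 ± 0.17, adjusted p = 0.225), T427 (0.09 ± 0.17) and T408 (0.13 ± 0.17) were not called. The untreated arrays were 0.39 apart, and both calls were lost without untreated replicate 1, with log2 differences of 0.58 after CD30L-Fc and 0.57 after T104. They were also lost without either array of the treatment itself, with differences of 0.73 and 0.81 after CD30L-Fc and of 0.75 and 0.79 after T104. Both were lost as well with only the 4 arrays of the 2 groups (adjusted p = 0.0628 and 0.0555) and with no filter on dim probes (0.07 and 0.0678).

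HSP90B1 encodes GRP94, the HSP90 of the ER. The signal was 14.65 and 14.51 after CD30L-Fc, 14.61 and 14.54 after T104, 14.32 and 14.09 after PW30, 14.15 and 14.17 after T427 and 14.20 and 14.41 after T408, against 14.14 and 14.04 in untreated cells. The CD30L-Fc and T104 arrays again lay above all others, by a smaller margin. HSP90B1 rose by 0.48 ± 0.13 after CD30L-Fc (adjusted p = 0.0445) and by 0.48 ± 0.13 after T104 (adjusted p = 0.0427), while PW30 differed by 0.11 ± 0.13 (adjusted p = 0.651), T427 by 0.07 ± 0.13 and T408 by 0.21 ± 0.13. Both calls stood close to the threshold. With only the 4 arrays of the 2 groups they were lost (adjusted p = 0.133 and 0.109), as with no filter on dim probes (0.2 and 0.182). They were lost without any of 8 arrays, namely both of the CD30L-Fc, T104, T427 and untreated groups, with adjusted p of 0.065 to 0.242 for CD30L-Fc and 0.0572 to 0.200 for T104.

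HYOU1 encodes GRP170, a large chaperone that exchanges nucleotide on BiP, and had 2 probes. Probe ILMN_1673649 gave 11.31 and 11.26 after CD30L-Fc, 11.29 and 11.41 after T104, 11.40 and 11.44 after PW30, 10.77 and 10.69 after T427 and 10.74 and 10.73 after T408, against 10.75 and 10.68 in untreated cells. The arrays of CD30L-Fc, T104 and PW30 stood together and well above the other 6, which covered a range of 0.09. The rise was 0.57 ± 0.11 after CD30L-Fc (adjusted p = 0.00753), 0.64 ± 0.11 after T104 (adjusted p = 0.00341) and 0.71 ± 0.11 after PW30 (adjusted p = 0.00182). After T427 and T408 the difference was 0.02 ± 0.11 in each, with 95% intervals of -0.23 to 0.26 and -0.22 to 0.26. The T104 and PW30 calls held under all alternatives. The CD30L-Fc call was lost without CD30L-Fc replicate 1 (0.55) and with only the 4 arrays of the 2 groups (adjusted p = 0.0713).

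Probe ILMN_2141790 of HYOU1 gave 10.70 and 11.01 after CD30L-Fc, 10.81 and 10.66 after T104, 11.08 and 10.60 after PW30, 10.21 and 9.96 after T427 and 10.38 and 10.16 after T408, against 10.34 and 10.47 in untreated cells. It placed the same 3 treatments above untreated, on all 6 arrays, but with more scatter. Its differences of 0.45 ± 0.18, 0.32 ± 0.18 and 0.43 ± 0.18 after CD30L-Fc, T104 and PW30 were not called (adjusted p = 0.186, 0.335 and 0.165). It lay at -0.33 ± 0.18 after T427 and -0.14 ± 0.18 after T408. So the probes of HYOU1 had the same sign for CD30L-Fc, T104 and PW30 but not the same call.

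**Figure D2:**
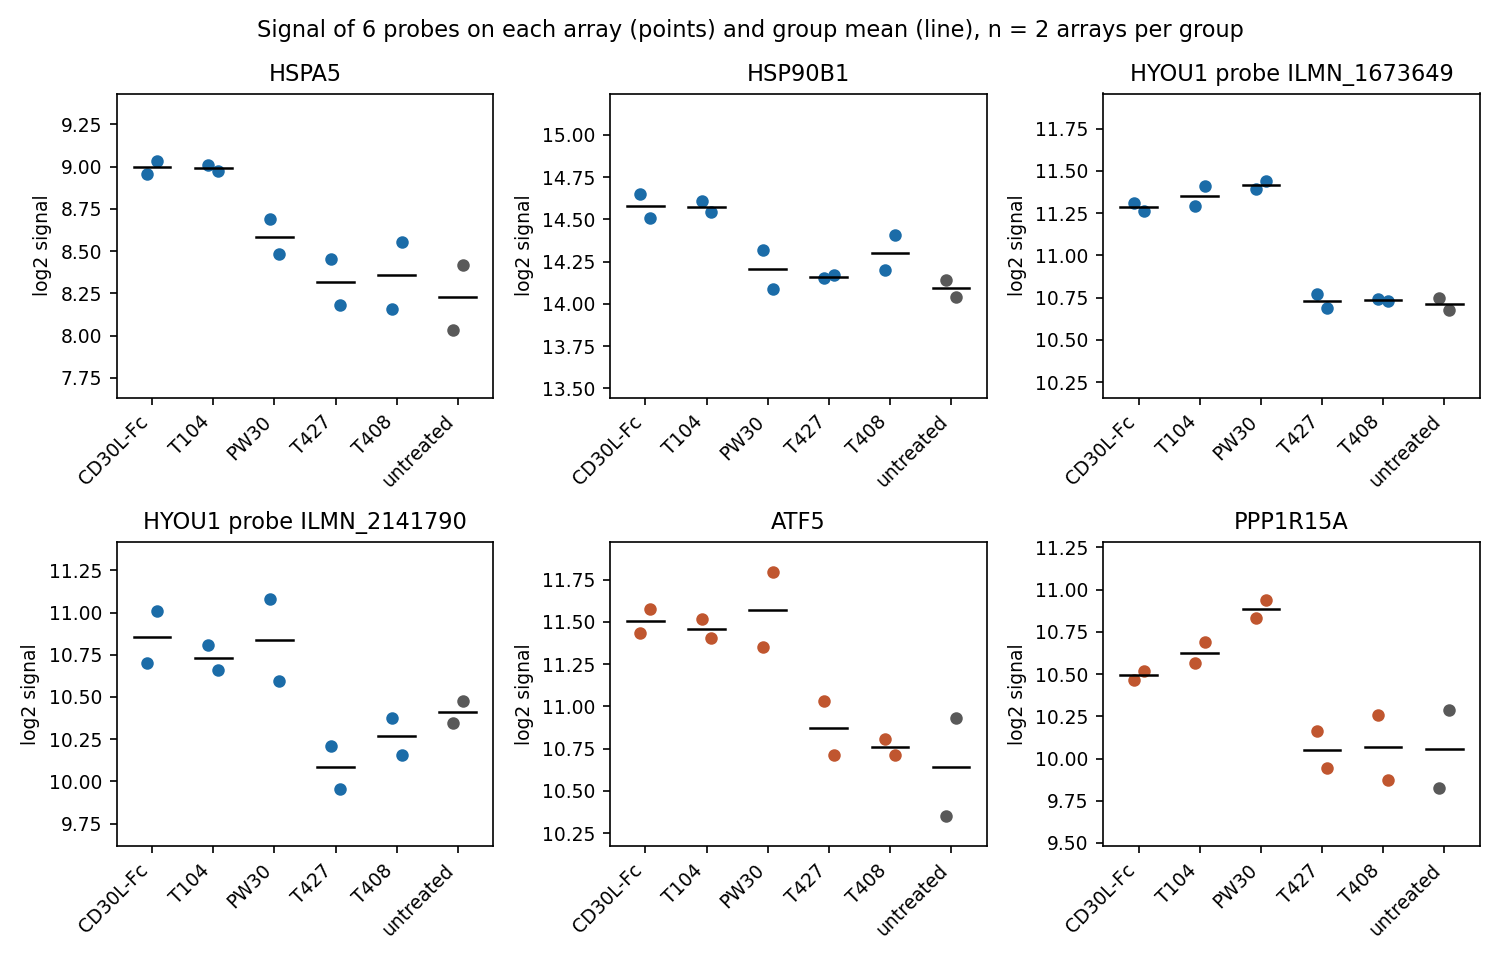
Log2 signal of the 6 probes of the 5 called genes on each array (points), with the mean of each group as a line, n = 2 arrays per group (blue, ER arm; orange, ATF4 arm; grey, untreated). HSPA5 and HSP90B1 are highest after CD30L-Fc and T104, whereas HYOU1, ATF5 and PPP1R15A are high after PW30 as well. The T427 and T408 points overlap with the untreated ones or lie near them, with exceptions. T427 is lower on the second HYOU1 probe, and both T408 points of HSP90B1 are above the untreated ones.

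The sensors and transducers of the ER arm did not pass the test in any treatment. ATF6, the membrane-bound factor released by proteolysis, had 10.51 and 10.73 after CD30L-Fc, 10.75 and 10.78 after T104, 10.59 and 10.55 after PW30, 10.76 and 10.70 after T427 and 10.55 and 10.88 after T408, against 10.66 and 10.79 in untreated cells. All groups overlapped with the untreated arrays except PW30, whose arrays lay just below them (-0.15 ± 0.14, adjusted p = 0.545). XBP1, whose spliced product drives chaperone and degradation genes, had 13.28 and 13.31 after CD30L-Fc, 13.38 and 13.19 after T104, 13.16 and 13.13 after PW30, 13.40 and 13.31 after T427 and 13.39 and 13.21 after T408, against 13.36 and 13.26 in untreated cells, on probe ILMN_1809433. The other probe, ILMN_2365465, gave 12.86 and 12.85 after CD30L-Fc, 12.92 and 12.86 after T104, 12.79 and 12.65 after PW30, 13.23 and 12.74 after T427 and 12.99 and 12.81 after T408, against 13.01 and 12.77 in untreated cells. Over both XBP1 probes the differences ran from -0.17 after PW30 to 0.10 after T427. Splicing of XBP1 is not read by these values. EIF2AK3, which encodes PERK, differed by 0.11 ± 0.15 after CD30L-Fc and by -0.24 ± 0.15 after PW30 (adjusted p = 0.344).

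Among the other ER chaperones and folding factors 0 were called against untreated cells. The nearest to a call was CRELD2, a stress-induced ER protein, after CD30L-Fc. It had 10.97 and 11.17 there, against 10.56 and 10.70 in untreated cells, a difference of 0.43 ± 0.14 (adjusted p = 0.0844). Its arrays also lay above both untreated ones after T104 (10.89 and 10.82), T427 (10.80 and 10.73) and T408 (10.79 and 10.97). Those of PW30 (10.66 and 10.94) overlapped with the untreated ones. DNAJB9, a co-chaperone of BiP, differed by 0.37 ± 0.15 after CD30L-Fc and 0.37 ± 0.15 after T104, with adjusted p of 0.202 and 0.181. MANF, a secreted ER stress protein, differed by 0.30 ± 0.13 after CD30L-Fc (adjusted p = 0.204), and SDF2L1, which works with BiP and its co-chaperones, by 0.21 ± 0.15. The co-chaperone DNAJB11 and the disulfide isomerases PDIA4 and PDIA6 stayed within -0.17 and 0.18 of untreated cells in all 5 treatments. DNAJC3, a co-chaperone of BiP that also inhibits PERK, went the other way after CD30L-Fc, with 7.64 and 7.66 there, against 8.03 and 8.13 in untreated cells (-0.43 ± 0.20, adjusted p = 0.247). It was the only ER arm probe with both CD30L-Fc arrays below both untreated arrays.

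In the degradation and translocation group SEC61B, a subunit of the channel through which proteins enter the ER, was above both untreated arrays on all 6 arrays of CD30L-Fc, T104 and PW30. These arrays lay between 12.93 and 13.16, against 12.68 and 12.81 in untreated cells. The differences of 0.29 ± 0.13, 0.33 ± 0.13 and 0.34 ± 0.13 were not called (adjusted p = 0.233, 0.158 and 0.130). EDEM1, a lectin that hands misfolded glycoproteins to degradation, had untreated arrays 0.62 apart, and its largest difference was 0.34 ± 0.23 after PW30. SEL1L, the scaffold of the HRD1 ubiquitin ligase, differed by at most 0.17 ± 0.20, after T104.

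Described as a whole, the 19 ER arm probes had median log2 differences of 0.14 after CD30L-Fc, 0.18 after T104, 0.12 after PW30, 0.03 after T427 and 0.01 after T408. The medians of all detected probes lay between -0.04 and 0.00. Positive values were found for 14, 16, 13, 13 and 10 of the 19. Both treated arrays lay above both untreated arrays for 9, 9 and 6 of the 19 after CD30L-Fc, T104 and PW30, where 21.2%, 21.6% and 22.5% of all probes did, and both lay below for 1, 0 and 2, where 27%, 27.7% and 27.2% of all probes did. After T427 and T408 the counts above were 2 and 3, where 16.6% and 16.7% of all probes did. Without HSPA5, HSP90B1 and HYOU1, left out after seeing the data, the 15 remaining ER arm probes had medians of 0.07, 0.17, 0.09, 0.03 and 0.00 in the same order of treatments. The 12 ATF4 arm probes had medians of -0.04, 0.02, -0.04, -0.04 and 0.00, and without ATF5 and PPP1R15A the medians of the other 10 were -0.08, -0.03, -0.07, -0.04 and -0.04. Of these 12 probes 4, 4 and 5 had both treated arrays above both untreated arrays after CD30L-Fc, T104 and PW30, and 4, 4 and 2 had both below. These medians and counts carry no test.

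**Figure D3:**
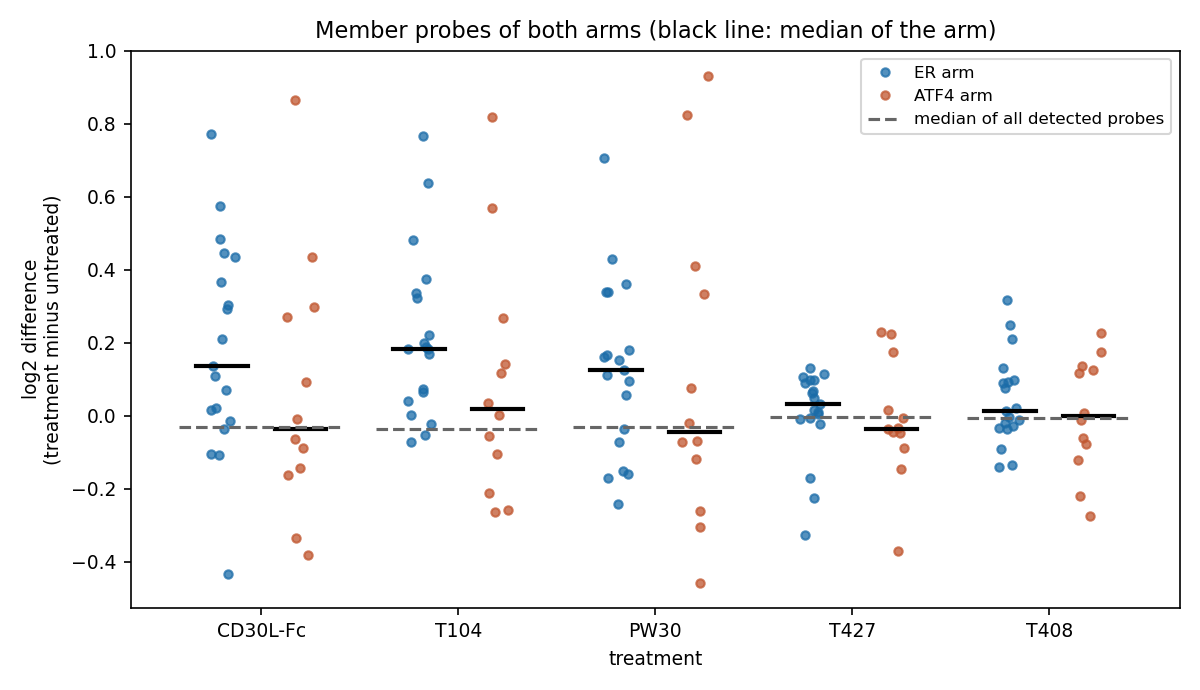
Log2 difference from untreated cells of each member probe (points; blue, ER arm, 19 probes; orange, ATF4 arm, 12 probes) after each treatment, with the median of each arm as a black line and the median of all 11949 detected probes as a dashed line. The ER arm medians of 0.14, 0.18 and 0.12 after CD30L-Fc, T104 and PW30 lie above the dashed line, and those of the ATF4 arm are -0.04, 0.02 and -0.04. The points of both arms spread to both sides of the dashed line.

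In the ATF4 arm the gene of the central factor itself did not pass. ATF4 probe ILMN_1672128 had 14.15 and 13.71 after CD30L-Fc, 13.91 and 13.87 after T104, 13.97 and 13.99 after PW30, 13.90 and 14.03 after T427 and 13.77 and 13.78 after T408, against 14.03 and 13.97 in untreated cells. Probe ILMN_2358457 had 9.85 and 9.76 after CD30L-Fc, 9.50 and 9.64 after T104, 10.02 and 9.86 after PW30, 9.37 and 9.73 after T427 and 9.80 and 9.71 after T408, against 9.47 and 9.60 in untreated cells. These probes differed. After PW30 the first gave -0.02 ± 0.14 and the second 0.41 ± 0.14 (adjusted p = 0.0949), neither called. ATF4 is known to be controlled mainly at translation, which these arrays do not measure.

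ATF5, a relative of ATF4 that is also translated under eIF2 alpha phosphorylation, had the largest difference from untreated cells among the members. Its signal was 11.44 and 11.58 after CD30L-Fc, 11.52 and 11.40 after T104, 11.35 and 11.80 after PW30, 11.03 and 10.71 after T427 and 10.81 and 10.71 after T408, against 10.35 and 10.93 in untreated cells. The CD30L-Fc, T104 and PW30 arrays all exceeded every array of the other groups, but the untreated arrays were 0.58 apart. The rise was 0.86 ± 0.20 after CD30L-Fc (1.82-fold, adjusted p = 0.0224), 0.82 ± 0.20 after T104 (1.76-fold, adjusted p = 0.0276) and 0.93 ± 0.20 after PW30 (1.91-fold, adjusted p = 0.0132). T427 differed by 0.23 ± 0.20 and T408 by 0.12 ± 0.20. Without untreated replicate 1 all 3 calls were lost, with log2 differences of 0.57, 0.53 and 0.64. The CD30L-Fc and T104 calls were also lost without either of their own arrays, and the PW30 call without PW30 replicate 2. With only the 4 arrays of the 2 groups all 3 calls were lost (adjusted p = 0.0861, 0.0844 and 0.0809). With no filter on dim probes those after CD30L-Fc and T104 were lost (0.0801 and 0.099).

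PPP1R15A encodes GADD34, the phosphatase subunit that reverses eIF2 alpha phosphorylation. It had 10.47 and 10.52 after CD30L-Fc, 10.56 and 10.69 after T104, 10.83 and 10.94 after PW30, 10.16 and 9.94 after T427 and 10.26 and 9.87 after T408, against 9.83 and 10.29 in untreated cells. The CD30L-Fc, T104 and PW30 arrays did not overlap with the other 6, and the PW30 arrays were the highest. It rose by 0.82 ± 0.17 after PW30 (1.77-fold, adjusted p = 0.0113), while 0.43 ± 0.17 after CD30L-Fc (adjusted p = 0.183) and 0.57 ± 0.17 after T104 (adjusted p = 0.0719) were not called. The PW30 call was lost without untreated replicate 1 or PW30 replicate 2, with differences of 0.59 to 0.77. It was also lost with only the 4 arrays of the 2 groups (adjusted p = 0.0579). After T104, 6 of 22 alternatives called PPP1R15A.

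DDIT3, which encodes the pro-apoptotic factor CHOP, had 8.87 and 8.89 after CD30L-Fc, 8.86 and 8.85 after T104, 8.90 and 8.94 after PW30, 8.73 and 8.89 after T427 and 8.85 and 8.60 after T408, against 8.37 and 8.81 in untreated cells. The first 3 treatments lay above both untreated arrays by little, with differences of 0.30 ± 0.15, 0.27 ± 0.15 and 0.33 ± 0.15, not called (adjusted p = 0.315, 0.355 and 0.204). Without untreated replicate 1 these DDIT3 differences were 0.08, 0.05 and 0.11, and without untreated replicate 2 they were 0.52, 0.49 and 0.55. CEBPB, a partner of ATF4 in binding, had negative differences in all 5 treatments. It had 11.56 and 11.27 after CD30L-Fc, 11.55 and 11.44 after T104, 11.53 and 11.06 after PW30, 11.67 and 11.74 after T427 and 11.72 and 11.66 after T408, against 11.76 and 11.74 in untreated cells. All 10 treated arrays lay below the untreated ones, those of T427 and T408 by little, and the largest difference, -0.46 ± 0.16 after PW30, was not called (adjusted p = 0.0976). TRIB3, a pseudokinase and feedback target of ATF4 and CHOP, stayed between -0.12 after PW30 and 0.17 after T427.

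The amino acid targets were not raised by any treatment at the threshold used. ASNS, which makes asparagine and is a standard target of ATF4, had 12.55 and 12.63 after CD30L-Fc, 12.39 and 12.55 after T104, 12.67 and 12.19 after PW30, 12.16 and 12.57 after T427 and 12.53 and 12.39 after T408, against 12.66 and 12.81 in untreated cells, on probe ILMN_1796417. All 5 differences on that probe were negative, from -0.14 to -0.37, and not called. Probe ILMN_2398107 of ASNS had 7.94 and 7.85 after CD30L-Fc, 8.24 and 8.56 after T104, 7.70 and 8.71 after PW30, 8.03 and 8.35 after T427 and 8.48 and 8.43 after T408, against 8.26 and 8.30 in untreated cells. It differed by -0.38 ± 0.26 after CD30L-Fc and by 0.17 ± 0.26 after T408, so the ASNS probes did not share a sign throughout. PSAT1, of serine synthesis, lay between -0.26 after PW30 and -0.12 after T408, SHMT2, the mitochondrial serine hydroxymethyltransferase, between -0.08 and 0.09, and AARS1, the alanyl-tRNA synthetase, between -0.07 and 0.14.

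Without choosing a treatment, the moderated F test among the 6 groups called 4 of the 31 member probes, where 8.34% of all probes were called. These were HYOU1 probe ILMN_1673649 (adjusted p = 0.00142), ATF5 (0.0220), PPP1R15A (0.0246) and HSPA5 (0.0294). The mean of the 5 treatments minus untreated called HYOU1 (0.39 ± 0.09, adjusted p = 0.0184) and ATF5 (0.59 ± 0.16, adjusted p = 0.0463), where 4.43% of all probes were called higher. HYOU1 was lost there without either untreated array, and ATF5 without any of 9 arrays.

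The agents were next set against each other. T104 and PW30 against CD30L-Fc, T104 against PW30, and T427 against T408 called 0 members, where 0%, 0.109%, 0.41% and 0% of all probes were called. Unadjusted p below 0.05 was reached by 0, 4, 3 and 0 of the 31, where 3.72%, 13.8%, 12.5% and 4.63% of all probes reached it, so these counts do not exceed the share of all probes. For HSPA5, T104 minus CD30L-Fc had a 95% interval of -0.38 to 0.37. PW30 minus CD30L-Fc was -0.41 for HSPA5 (interval -0.79 to -0.03, adjusted p = 0.331) and -0.37 for HSP90B1 (-0.66 to -0.09, adjusted p = 0.252). So the lower HSPA5 and HSP90B1 of the PW30 arrays did not pass as a difference between agents, although they were called after CD30L-Fc and not after PW30. PPP1R15A pointed the other way, at 0.39 in PW30 minus CD30L-Fc (0.01 to 0.77, adjusted p = 0.355).

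Against T427 and T408, the member that separated the agents in each of 6 comparisons was HYOU1, on probe ILMN_1673649. T427 and T408 minus CD30L-Fc gave -0.56 ± 0.11 (adjusted p = 0.0162) and -0.55 ± 0.11 (0.0158). T104 minus T427 and minus T408 gave 0.62 ± 0.11 (0.00732) and 0.62 ± 0.11 (0.00752), and PW30 minus T427 and minus T408 gave 0.69 ± 0.11 (0.00363) and 0.68 ± 0.11 (0.00401). The PW30 calls held under all alternatives. Those against CD30L-Fc were lost without any single array of the groups compared, with differences between -0.60 and -0.52. T104 minus T427 was lost without T104 replicate 2 or T427 replicate 2, and T104 minus T408 without T104 replicate 2 or either T408 array.

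Few other members separated these agents. HYOU1 probe ILMN_2141790 was called in T427 minus CD30L-Fc (-0.77 ± 0.18, adjusted p = 0.0351) and PW30 minus T427 (0.76 ± 0.18, adjusted p = 0.0299). PPP1R15A was called in PW30 minus T427 (0.83 ± 0.17, adjusted p = 0.0158) and PW30 minus T408 (0.82 ± 0.17, adjusted p = 0.0195), and ATF5 in PW30 minus T408 (0.81 ± 0.20, adjusted p = 0.0410). In T427 and T408 minus CD30L-Fc, 2.85% and 3.1% of all probes were called lower. In T104 minus T427 and minus T408, 3.02% and 3.32% were called higher, and in PW30 minus T427 and minus T408 3.75% and 3.35%. HSPA5 just missed the threshold, at -0.68 and -0.64 in T427 and T408 minus CD30L-Fc and at 0.68 and 0.64 in T104 minus T427 and minus T408, with adjusted p of 0.0516 to 0.0642. ATF5, also not called there, lay at -0.63 and -0.75 in T427 and T408 minus CD30L-Fc. In T104 minus T427 and minus T408 ATF5 lay at 0.59 and 0.70. The PW30 minus T427 call of HYOU1 probe ILMN_2141790 was lost without PW30 replicate 1 or either T427 array, and its T427 minus CD30L-Fc call without any CD30L-Fc, T104 or T427 array. PPP1R15A was lost without either PW30 array or without replicate 2 of T427 or T408, and ATF5 without PW30 replicate 2 or any CD30L-Fc, T104 or T408 array.

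Other genes of these pathways were read from 6 lists, each by the brightest detected probe per gene, and after T427 and T408 0 of them were called. Over the brightest detected probes of all 8113 genes, 5.12%, 5.39% and 5.71% were called higher after CD30L-Fc, T104 and PW30, and 2.53%, 2.82% and 4.19% lower. The called counts in these small lists are low, and no shift of a list is read from them. Among the ATF4 targets below, the share called higher was above these shares after all 3 treatments. That list was chosen with earlier results of these data known and was not tested, so nothing is read from its share either. Of 23 measured genes for ER folding, oxidation and glycosylation 0 were called in any treatment, with medians from -0.06 after PW30 to 0.02 after T104. In the list of ER translocation, degradation and transport (29 genes) 1, 2 and 2 rose after CD30L-Fc, T104 and PW30, and 0 fell. SEC23B, a coat protein of vesicles that leave the ER, had 11.62 and 11.75 after CD30L-Fc, 11.52 and 11.50 after T104 and 11.33 and 11.72 after PW30, against 10.90 and 10.78 in untreated cells. It rose by 0.85 (adjusted p = 0.0062), 0.67 (0.0215) and 0.68 (0.0185). SEC23B had 11.24 and 11.03 after T427 and 11.20 and 10.91 after T408, not called. SELENOS, of the retrotranslocation machinery, rose by 0.46 after T104 (adjusted p = 0.0462) and 0.55 after PW30 (0.0185). Of 10 measured stress sensors and eIF2 alpha regulators only EIF2AK4, which encodes GCN2, rose, after CD30L-Fc (0.44, adjusted p = 0.0411), and this call was lost without any single array.

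Among 17 measured genes of amino acid synthesis, import and stress that ATF4 is known to control, 2, 3 and 2 rose and 1 fell in each of CD30L-Fc, T104 and PW30. ATF3, a stress-induced repressor, had 11.90 and 12.10 after CD30L-Fc, 12.08 and 11.99 after T104 and 12.05 and 11.91 after PW30, against 10.91 and 11.02 in untreated cells, and rose by 1.03 (adjusted p = 3.61e-04), 1.07 (2.52e-04) and 1.01 (3.77e-04). DDIT4, an inhibitor of mTORC1, rose by 0.99 (adjusted p = 4.53e-04), 0.89 (8.23e-04) and 1.12 (1.70e-04). The calls of ATF3 and DDIT4 held without each of the 12 arrays. CEBPG, a partner of ATF4, rose by 0.61 after T104 (adjusted p = 0.0182). CTH, which makes cysteine from cystathionine, fell by 0.52 (adjusted p = 0.0291), 0.47 (0.0444) and 0.50 (0.0297). After T427 and T408 ATF3, DDIT4 and CTH were not called, but every array lay on the same side of the untreated ones. ATF3 had 11.41 and 11.31 after T427 and 11.51 and 11.36 after T408. DDIT4 had 12.49 and 12.31, and 12.34 and 12.32, against 11.73 and 11.87 in untreated cells. CTH had 8.11 and 8.40, and 8.22 and 8.11, against 8.64 and 8.59.

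Of 17 measured cytosolic aminoacyl-tRNA synthetases WARS1, the tryptophanyl enzyme, rose after CD30L-Fc (0.48, adjusted p = 0.0310), EPRS1, the glutamyl and prolyl enzyme, fell by 0.48 after PW30 (adjusted p = 0.0345), and 0 were called after T104. Of 14 measured genes of the cytosolic heat shock response, DNAJA1, a co-chaperone of HSP70, rose after CD30L-Fc (0.50, adjusted p = 0.0395) and T104 (0.48, adjusted p = 0.0469), and 0 after PW30. The T104 call of DNAJA1 was lost without any single array and its CD30L-Fc call without any of 8. The calls of CTH and WARS1 after CD30L-Fc, of CTH after PW30 and of SEC23B after T104 were lost without either array of the treatment or either untreated array. SEC23B was also lost after CD30L-Fc without CD30L-Fc replicate 2, and after PW30 without PW30 replicate 2 or untreated replicate 2. CEBPG was lost without T104 replicate 1 or either untreated array, and SELENOS after PW30 without PW30 replicate 1 or untreated replicate 1. CTH and SELENOS after T104 were each lost without any of 10 arrays and EPRS1 without any of 7.

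**Figure D4:**
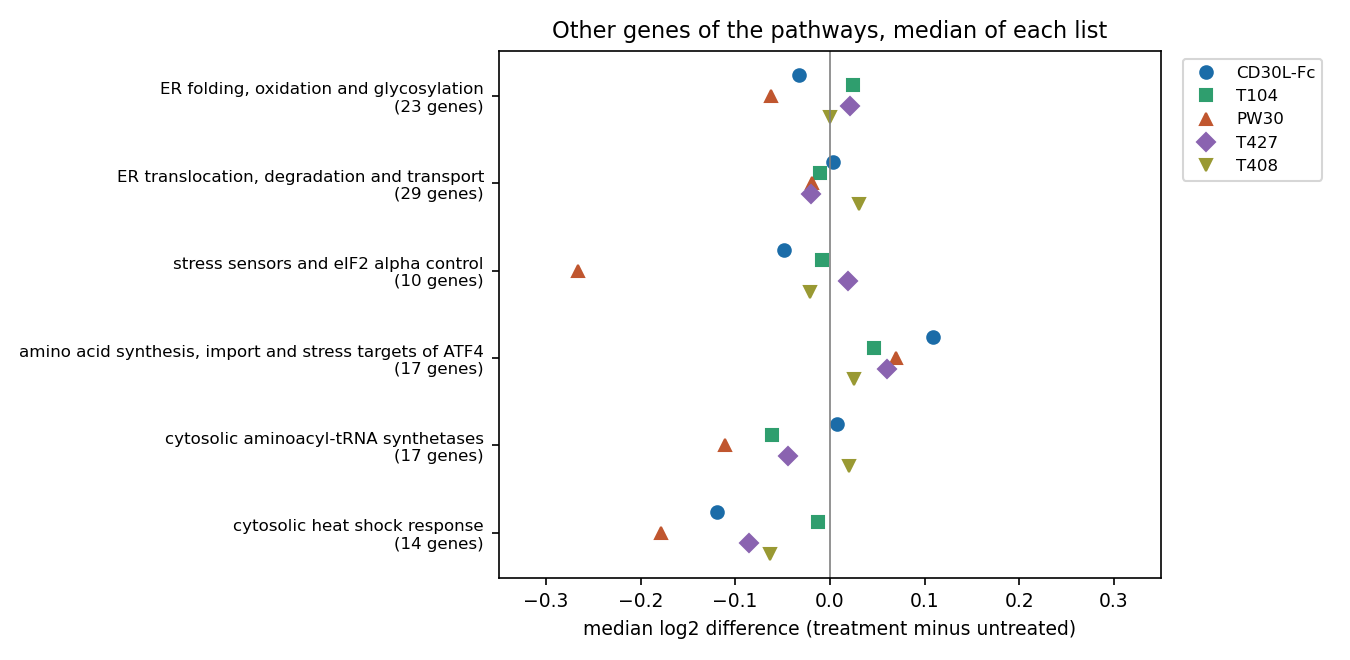
Median log2 difference from untreated cells of the measured genes in 6 further lists (number of genes in brackets) after each of the 5 treatments (symbols), without error bars or test. The medians lie between -0.27, for the stress sensors after PW30, and 0.11, for the ATF4 targets after CD30L-Fc.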

How the data were processed

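RNA of 12 L540 samples was extracted with TRI reagent, labelled as biotinylated cRNA and hybridised to Illumina HumanHT-12 v3 BeadChips, per the labels' protocols. The submitters' processing notes name GenomeStudio and the design text BeadStudio, and no version is stated. Per the file headers, the table deposited before normalization holds a signal intensity and a detection p-value for each of 48780 probes and each array. The processed intensity values deposited by the authors appear quantile-normalised and served as an alternative.

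Intensities were corrected with normexp, whose control moments limma infers from detection p-values, raised by an offset of 16, and quantile-normalised before log2 was taken (limma 3.58.1, R 4.3.3). Probes were named through the platform annotation supplied (28082 with 1 gene, 13 with several, 20685 with none). For 28043 the symbol was updated through the Entrez identifier to the RefSeq table of GRCh38.p14 and 39 were kept. The 11949 probes that some group detected on each of its 2 arrays (p below 0.01) were fitted with 6 group means by lmFit and eBayes, and 16 two-sided contrasts and a moderated F test were adjusted by Benjamini-Hochberg within each over all probes. All groups share 1 estimate of the spread. Calls are at an adjusted p below 0.05 and intervals at 95%. With 2 arrays against 2, the smallest p of an exact permutation test is 0.333. The number of arrays limits the precision.

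Probes were given array by array where they passed a comparison with untreated cells, the mean of the treatments or the F test, where they were among the 3 largest differences of an arm, and always for HSPA5, XBP1, ATF6, ATF4, DDIT3 and ASNS. Called genes of the 6 further lists were named, up to 4 per list and comparison. The members and lists were chosen with earlier results of these data known. Alternatives were no background correction, the authors' values, median scaling, an offset of 50, no filter, detection on all 12 arrays, the brightest probe per gene, a variance trend, a replicate block, only the arrays compared, and leaving out each array.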

Additional observations from a re-analysis of the deposited data

How the results depend on the processing

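No called value of a named probe changed sign under any alternative run, while 34 of the 77 values that were not called did under at least 1. Of 44 called values of named probes 10 passed under all alternatives, and of 77 that were not called 3 passed under some: PPP1R15A after T104, CEBPB after PW30 and HSP90B1 in the mean of the treatments. The counts below are member probes called. As reported they were 4, 4, 3, 0 and 0 after CD30L-Fc, T104, PW30, T427 and T408 against untreated cells, 2 and 1 in T427 and T408 minus CD30L-Fc, 1 and 1 in T104 minus T427 and minus T408, 3 and 3 in PW30 minus T427 and minus T408, 2 in the mean of the treatments and 4 in the F test.

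Without background correction, and with the authors' processed values, T427 and T408 minus CD30L-Fc called 5 and 4 and T104 minus T427 and minus T408 called 6 and 4. With median scaling T104 minus T427 called 3 and the mean of the treatments 1. With an offset of 50, and with detection on all 12 arrays, T408 minus CD30L-Fc, T104 minus T427 and T104 minus T408 called 3 each. With the brightest probe per gene the same comparisons called 3, 2 and 2. With no filter on dim probes, which adjusts over more probes, CD30L-Fc and T104 called 1 each against untreated cells, T427 and T408 minus CD30L-Fc 0, PW30 minus T427 and minus T408 1 each, the mean of the treatments 0 and the F test 1. With a variance trend PW30 called 5 against untreated cells, T427 and T408 minus CD30L-Fc 5 each, and T104 minus T427 and minus T408 6 and 4. With only the 4 arrays compared, CD30L-Fc, T104 and PW30 called 0, 1 and 1 against untreated cells, and T104 minus T408 called 2. The cause of these changes was not tested, including the part of the fewer samples and of the added probes.

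Leaving out 1 array gave 0 to 4, 1 to 4 and 1 to 4 after CD30L-Fc, T104 and PW30, 0 after T427 and T408, 0 to 3 in T427 and T408 minus CD30L-Fc, 0 to 2 and 0 to 3 in T104 minus T427 and minus T408, 1 to 4 and 1 to 3 in PW30 minus T427 and minus T408, 0 to 2 in the mean of the treatments and 2 to 4 in the F test. The lone array of a group is there assumed to vary like the others.

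Replicates 1 and 2 carry the same numbers in every group. The differences between duplicates correlated between groups at r of -0.0925 to 0.0855 over 15 pairs of groups. So no shared effect of the replicate number was seen. Whether equal numbers were prepared together cannot be read from these values. With the replicate number as a block CD30L-Fc, T104 and PW30 called 3 each against untreated cells and the mean of the treatments 1, and HSP90B1 was lost after CD30L-Fc (adjusted p = 0.0607) and T104 (0.0567).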
